A study of Mus musculus with 16 samples.

Results

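The matrix metalloproteases (MMPs), the ADAMTS proteases and the tissue inhibitors of metalloproteases (TIMPs) were examined in the transcriptomes of transfected mouse TM4 cells. Members were taken by their mouse symbol (*Mmp*, *Adamts* or *Timp* followed by a number) among protein-coding genes, which gave 46 of the 56748 gene identifiers of the counts table. They comprise 23 MMP genes, 19 ADAMTS genes and 4 TIMP genes. The rule itself uses symbols and no measured value.

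TM4 is an established mouse line that stems from Sertoli cells, the somatic cells that support germ cells in the testis. The 16 samples fall into 3 groups that differ only in the plasmid: 6 samples received the empty vector pcDNA3.1-HA (EV), 5 received pcDgdf6Y, which carries *gdf6Y*, the Y-chromosomal growth factor gene of the turquoise killifish, and 5 received pcDgdf6Ydel9 (del9), which carries a *gdf6Y* variant with a 9 bp deletion. All cells, the EV controls included, were grown in DMEM with 10% FBS, took up 2.5 µg of plasmid per well with Lipofectamine 3000 at 24 h after seeding, and were lysed 24 h later. Expression was therefore transient, of a fish protein in a mouse line, and the share of cells that took up plasmid was not measured here. The labels number the samples but do not say whether they came from separate cultures, so that p-values measure at most the spread between these samples. In the reported fit that spread was mostly shared across genes, as described for *Adamts7* below.

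The MMPs and the ADAMTS proteases are zinc-dependent enzymes that cut proteins of the extracellular matrix. Most MMPs and ADAMTS proteases are made as inactive proenzymes and are opened by other proteases, among them furin, plasmin and other MMPs. TIMPs bind to the active site, and because a TIMP can also take part in proenzyme activation, the level of a protease transcript does not give its activity. In the testis, MMPs, plasminogen activators and TIMPs are known from the remodelling of the seminiferous tubule, its basement membrane and its cell junctions.

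Between 21486850 and 26444903 reads per sample were counted on genes. *Id1*, a target gene of bone morphogenetic protein signalling that served as a check of the transfection, had 1035 normalized counts on average with EV, 1927 with *gdf6Y* and 1235 with del9. Its *gdf6Y* samples lay above all samples of both other groups, as did those of *Id2* and *Id3*. The del9 samples of *Id1* (1147 to 1326) also lay above those with EV (985 to 1081). Of 12 Sertoli cell markers, 5 (*Sox9*, *Kitl*, *Gata4*, *Dhh* and *Inha*) reached a mean of 10 normalized counts over the 16 samples, while *Wt1* and *Dmrt1* had no count. The markers of Leydig cells, leukocytes, endothelium and germ cells all stayed below that level. Of the granulosa cell markers *Fst* and of the myoid cell markers *Acta2* and *Cnn1* were above it. Of the 12 Sertoli cell markers, *Gata4* was called lower between *gdf6Y* and EV (704 to 754 against 822 to 840 normalized counts, log2 fold change -0.20, adjusted p = 1.0e-04) and under all 21 alternatives. The summed counts of the 12 markers were 1499 to 1620 with *gdf6Y*, 1570 to 1736 with del9 and 1682 to 1770 with EV. *Fst* was called higher between del9 and EV (log2 fold change 0.44) and lower between *gdf6Y* and del9 (-0.29, but adjusted p = 0.345 with filterByExpr). No other cell type marker was called in the reported test. Of the 3 myoid cell markers, 1 was called higher between *gdf6Y* and EV with filterByExpr and with DESeq2. The summed counts of these 3 markers were 4647 to 5013 with *gdf6Y*, 4524 to 4785 with del9 and 4440 to 4666 with EV. The part of cell composition in the differences reported here was not tested. In bulk RNA a lower share of cells of one kind and less RNA per cell cannot be told apart.

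Gelatinase A, a membrane-type MMP and 2 inhibitors led the family transcripts of TM4 cells. A member was counted as expressed at a mean of at least 10 TMM-normalized counts (raw counts divided by the effective library size and scaled to the mean effective library size) over the 16 samples. By this rule 23 of the 46 members were expressed: 9 MMPs, 11 ADAMTS proteases and 3 TIMPs. This is 50% of the members, against 22.2% of all identifiers in the table (12578 of 56748). The identifiers were not restricted to protein-coding genes as the members were, so that these shares are not like for like. A further 13 members were detected with few reads, at most 6 in any sample, and 10 had no count in any sample. A count of 0 allows up to 3 of the 394478886 reads counted in all, as far as counting error goes.

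To compare genes with each other, normalized counts were divided by exonic length and scaled to TPM, the usual measure of transcript abundance per length, which has the same total in every sample. Exonic length was that of all annotated exons of a gene joined, which can exceed the length of a single transcript. The highest level was that of *Timp2*, at 458 ± 10.3 TPM with EV (SD, n = 6), 447 ± 10.0 with *gdf6Y* (SD, n = 5) and 458 ± 15.6 with del9 (SD, n = 5). *Timp2* encodes the inhibitor that also bridges pro-MMP2 to MMP14 at the cell surface. *Mmp2*, encoding gelatinase A, followed with 308 ± 4.14 TPM with EV (SD, n = 6). *Timp1*, a broad soluble inhibitor, had 273 ± 9.72 TPM with EV (SD, n = 6). The single samples of *Mmp2* (278 to 315 TPM) and *Timp1* (256 to 299 TPM) overlapped, so that their order is not set by these data, whereas every sample of *Timp2* (432 to 485 TPM) lay above both. *Mmp14*, the membrane-type protease that activates pro-MMP2, had a mean of 85.3 TPM over the 16 samples. All components of the *Mmp2*, *Mmp14* and *Timp2* activation complex were thus among the 4 highest members.

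The next levels were those of *Mmp19* (68.9 TPM on average over the 16 samples), a secreted MMP that cuts basement membrane proteins, and of *Adamts1* (54.0 TPM), a protease of versican and other proteoglycans that is required for ovulation. *Mmp11*, or stromelysin 3, reached 29.3 TPM, *Adamts14* 27.4 TPM, *Adamts7* 16.3 TPM and *Mmp23* 13.7 TPM. The other 13 expressed members lay between 0.253 TPM (*Timp3*) and 9.27 TPM (*Adamts6*). Summed over all members of a class, the MMPs gave 522 ± 10.9 TPM with EV (SD, n = 6), the ADAMTS proteases 158 ± 4.8 and the TIMPs 732 ± 18.8. Transcripts of inhibitors were therefore more abundant per length than those of the MMPs in the EV samples (705 to 760 against 508 to 533 TPM), and the ranges did not overlap in any of the groups.

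Within the MMPs, expression was uneven across the subclasses. Both gelatinases were expressed, *Mmp2* at a mean of 5276 normalized counts over the 16 samples and *Mmp9* at 66.7. Of 6 membrane-type MMPs only *Mmp14* was (mean 2652 normalized counts), while *Mmp15*, *Mmp16*, *Mmp17*, *Mmp24* and *Mmp25* were detected with 41 reads in all samples together or fewer. Among the stromelysins, *Mmp10* (mean 11.4 normalized counts) and *Mmp11* (521) were expressed and *Mmp3* was detected only, with 11 reads. Of the collagenases, which can cut intact fibrillar collagen, *Mmp13* had a mean of 15.3 normalized counts, *Mmp1b* had 10 reads in all, and *Mmp1a* and *Mmp8* had none. *Mmp1a* and *Mmp1b* are close paralogs, and reads mapping to both were discarded, so that their counts are uncertain. The matrilysin *Mmp7* had no count. *Mmp19*, *Mmp23* and *Mmp28* were expressed, *Mmp12*, *Mmp20* and *Mmp21* had 1 read each, and *Mmp27* had none.

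The ADAMTS proteases covered each of the main substrate classes. Expressed proteoglycanases were *Adamts1*, *Adamts4*, *Adamts5* and *Adamts9*, whereas *Adamts15* had 1 read and *Adamts8* and *Adamts20* had none. All 3 procollagen N-proteinases, *Adamts2*, *Adamts3* and *Adamts14*, which trim the amino propeptide of fibrillar procollagens, were expressed. *Adamts14* was the most abundant of them, at 27.4 TPM against 4.55 TPM for *Adamts2* and 4.60 TPM for *Adamts3*. *Adamts7* and *Adamts12*, which cut cartilage oligomeric matrix protein (COMP), and *Adamts6* and *Adamts10*, which are associated with fibrillin microfibrils, were all expressed. The gene of the von Willebrand factor-cleaving protease, *Adamts13*, had 8 reads in all samples together. *Adamts17* had 5, and *Adamts16*, *Adamts18* and *Adamts19* had none. Of the TIMPs, *Timp4* had no count and *Timp3*, encoding the matrix-bound inhibitor of ADAMTS and ADAM proteases, was near the limit of expression with a mean of 10.4 normalized counts over the 16 samples.

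Of the 23 MMP genes, 10 lie in a cluster on chromosome 9 (GRCm39, chr9:7272514-7699587). Only *Mmp13* and *Mmp10* of this cluster were expressed, *Mmp1b*, *Mmp3*, *Mmp12* and *Mmp20* were detected, and *Mmp1a*, *Mmp7*, *Mmp8* and *Mmp27* had no count. The promoters of these genes are known for a binding motif of the AP-1 transcription factors close to the start site. Promoters of 300 bases, 250 before and 50 after the start, were available from RefSeq (GRCm38.p6) for 32 of the 46 members, and each matched 1 place in GRCm39 exactly. The AP-1 motif TGANTCA, which reads the same on both strands, was found in 8 of the 10 members of the cluster and in none of the other 22. It was found in 7.81% of all 32851 promoters of the table. The 8 stretches of 30 bases are shown because expressed genes and genes without a count share the motif, which is in capitals, and each is written 5′ to 3′ on the strand of its gene. The first is on chr9:7272468-7272497 (plus strand), followed by chr9:7502269-7502298 (plus), chr9:7445765-7445794 (plus), chr9:7388101-7388130 (minus), chr9:7347319-7347348 (plus), chr9:7628126-7628155 (plus), chr9:7464057-7464086 (plus) and chr9:7692017-7692046 (plus).
Mmp13: ccccaaagtggTGACTCAtcactatcatgc
Mmp10: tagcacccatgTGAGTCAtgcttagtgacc
Mmp3: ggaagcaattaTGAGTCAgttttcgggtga
Mmp1b: gttacaaagccTGAGTCAtatagcctctgg
Mmp12: gacatcaacagTGAGTCAgatagaggattt
Mmp20: catttgagacaTGAATCAtcacttacaggg
Mmp1a: gttgtcaaccaTGAGTCAcatagcctctgg
Mmp7: aagtgtgcaaaTGAGTCAcctatttccaca

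The motif began 35 bases before the start site in *Mmp13* and 63 bases before it in *Mmp10*, the 2 expressed genes, and between 44 and 95 bases before it in the others. *Mmp12* and *Mmp7* have 2 promoters each in the table, of which 1 held the motif. Of the motifs bound by Smad proteins, GGCGCC occurred in 7 of the 35 member promoters (20%, against 11.9% of all promoters) and GTCTAGAC in none of them (0.213% of all promoters). GGCGCC was found in the promoters of *Adamts2*, *Adamts9*, *Adamts14*, *Mmp11*, *Mmp24* and *Mmp23*, the last with 2 promoters. A match describes the letters in this window and says nothing about binding in TM4 cells.

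The comparison of *gdf6Y* with EV shows which genes differ from cells with the empty vector. A response to the fish growth factor and an effect of carrying any insert cannot be told apart in it. *Mmp19*, *Adamts7* and *Adamts6* were called lower with *gdf6Y*, each by less than 0.30 on the log2 scale, and no member was called higher. These are 3 of the 35 members tested, against 3.38% of all 26316 genes called lower and 1.7% called higher in this comparison (edgeR quasi-likelihood test, adjusted p below 0.05). Among genes with a mean of at least 10 normalized counts, to which all called members belong, 7.03% were called lower and 3.51% higher. At an unadjusted p below 0.05, 8 members differed, of which *Timp1* was the 1 that was higher. All 8 were among the 23 expressed members, and 14.3% of all genes tested and 26% of those with a mean of at least 10 passed the same threshold. DESeq2 called *Timp1* higher, against 1.99% of all genes, and *Mmp19*, *Adamts7* and *Adamts6* lower, against 2.87%.

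*Mmp19* had 1178 to 1425 normalized counts with EV (median 1382), while the 5 *gdf6Y* samples had 1249, 1071, 1131, 1223 and 1041. Of these, 3 lay below all EV samples and the other two inside the EV range. The log2 fold change was -0.21 (SE 0.04, adjusted p = 1.3e-06), and the call held under all 21 alternatives, with adjusted p up to 0.026. *Adamts6*, a protease associated with fibrillin microfibrils, had 360 to 431 normalized counts with EV (median 391), and 329, 325, 361, 345 and 332 with *gdf6Y*. All but 1 *gdf6Y* sample lay below the EV range. Its log2 fold change was -0.21 (SE 0.06, adjusted p = 0.00682), and without EV replicate 6, the highest EV sample, the adjusted p was 0.0504.

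*Adamts7*, a COMP-cleaving protease also known from vascular disease, had 470 to 656 normalized counts with EV (median 583) and 531, 446, 491, 502 and 417 with *gdf6Y*. The EV samples of this gene were spread widely, and only 2 *gdf6Y* samples lay below them. Its log2 fold change was -0.25 (SE 0.05, adjusted p = 4.5e-05). With every low-count gene kept in the fit, the spread of each gene was drawn almost fully to the common trend. The prior degrees of freedom were 738 here and infinite in both comparisons with del9. With low-count genes removed by filterByExpr they were 9.57 in this comparison. The same log2 fold change of *Adamts7* then had an SE of 0.08, and the adjusted p was 0.0686.

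**Figure D1:**
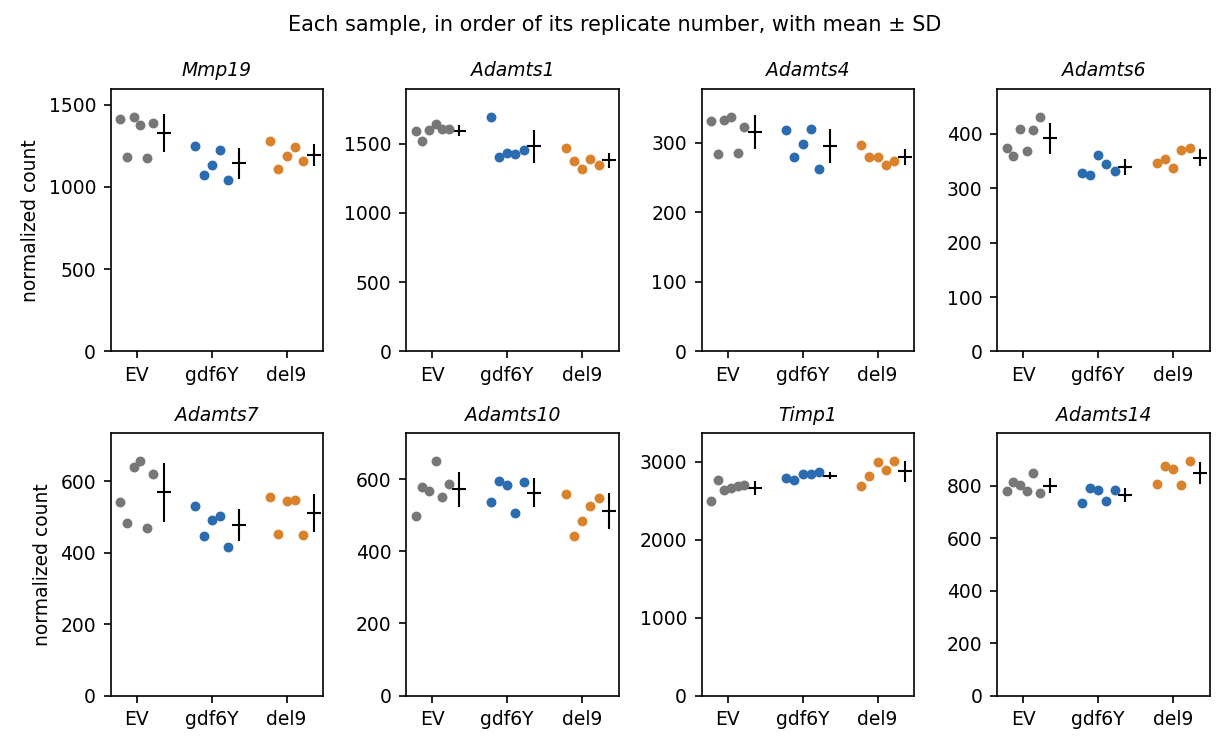
TMM-normalized counts of the 7 members called in at least 1 comparison and of *Adamts14*; each point is a sample, ordered by its replicate number within the 6 EV, 5 *gdf6Y* and 5 del9 samples, and the black marks are means with SDs. The groups overlap except del9 and EV in *Adamts1*, *gdf6Y* and EV in *Timp1*, and *gdf6Y* and del9 in *Adamts14*. The share of all genes without overlap was not counted.

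The other members gave values without a call between *gdf6Y* and EV. *Adamts1* had 1518 to 1640 normalized counts with EV (median 1600), while *gdf6Y* replicate 1 had 1691 and the other *gdf6Y* samples had 1400, 1432, 1426 and 1453. Thus 4 samples lay below and 1 above all EV samples, and the log2 fold change was -0.10 (SE 0.03, adjusted p = 0.0515). Without *gdf6Y* replicate 1 it was -0.15 (adjusted p = 0.000791), and without EV replicate 2 the adjusted p was 0.0233. *Adamts1* was also called lower with the gene length correction described below for *Timp1* (0.0183) and with scaling by total counts (0.0358). *Timp1* had 2501 to 2761 normalized counts with EV (median 2675) and 2796, 2764, 2838, 2844 and 2867 with *gdf6Y*. Its groups did not overlap, but the log2 fold change was 0.09 (SE 0.03) and the adjusted p was 0.0631. The adjusted p of *Timp1* was 0.0411 with filterByExpr and 0.0211 with DESeq2, and 0.0328 to 0.0483 without EV replicate 2, *gdf6Y* replicate 1 or *gdf6Y* replicate 2. Of the members called only between del9 and EV, *Adamts4* had 318, 280, 298, 320 and 263 normalized counts with *gdf6Y* (log2 fold change -0.09, SE 0.06, adjusted p = 0.53). *Adamts10* had 536, 596, 583, 505 and 592 (-0.02, SE 0.05, adjusted p = 0.868), all inside the EV range of 499 to 649.

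None of the 3 transcripts of the pro-MMP2 activation complex was called between *gdf6Y* and EV, although *Mmp2* was with the gene length correction. *Timp2* had 9959 to 10492 normalized counts with EV and 9855 to 10448 with *gdf6Y*, and the 95% interval of its log2 fold change ran from -0.05 to 0.05. That of *Mmp14* ran from -0.07 to 0.05, with 2556 to 2745 counts with EV and 2571 to 2703 with *gdf6Y*. *Mmp2* had 5323 to 5553 normalized counts with EV and 5029 to 5400 with *gdf6Y* (log2 fold change -0.06, SE 0.03, adjusted p = 0.281), and with the length correction its log2 fold change was -0.09 (adjusted p = 0.0319). *Mmp11* (0.05, SE 0.05), *Mmp23* (-0.02, SE 0.07) and *Adamts14* (-0.06, SE 0.04) had adjusted p-values of 0.57, 0.935 and 0.524 for their log2 fold changes. The scarce genes were measured less precisely: *Mmp13* had a log2 fold change of -0.63 with an SE of 0.26 (adjusted p = 0.157), from 18.3 normalized counts on average with EV and 11.6 with *gdf6Y*. Over the 23 expressed members, the median log2 fold change was -0.06 and 18 lay below 0, while over all 12578 genes at this level the median was 0.00 and 49.6% lay below 0.

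The comparison of del9 with EV places the 2 control plasmids side by side. Of the check genes, *Id1* and *Id2* were called higher with del9 (1 of the 2 with DESeq2). *Id3* had 674 normalized counts on average with EV and 689 with del9. Several fits that left out a replicate lost the call of *Id2*, at adjusted p between 0.068 and 0.187. An effect of the del9 product and of carrying any insert cannot be told apart here. *Adamts1*, *Mmp19*, *Adamts10*, *Adamts7* and *Adamts4* fell with del9 and *Timp1* rose, again by small amounts. In this comparison 5 of 35 members tested were called lower, against 4.43% of all genes tested, and 1 was called higher, against 4.82%. Among genes with a mean of at least 10 normalized counts, 8.25% were called lower and 9.97% higher. DESeq2 called 2 members lower (*Adamts1* and *Mmp19*, against 3.54% of all genes) and *Timp1* higher (against 4.28%). These EV samples are the same as in the comparison with *gdf6Y*, so that the results of both comparisons are not independent.

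*Adamts1* had the smallest adjusted p of all members. The del9 samples had 1466, 1373, 1319, 1386 and 1346 normalized counts, and all lay below the lowest EV sample (1518). The log2 fold change was -0.21 (SE 0.03, adjusted p = 1.2e-07), and the call held under all 21 alternatives, with adjusted p up to 0.000439. *Mmp19* had 1281, 1112, 1189, 1243 and 1156 normalized counts with del9, of which 2 lay below the EV range of 1178 to 1425. Its log2 fold change of -0.15 (SE 0.04, adjusted p = 0.000814) also kept its call under all 21 alternatives, at adjusted p up to 0.0473.

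The calls of the other ADAMTS proteases between del9 and EV were each lost under several alternatives. *Adamts10*, associated with fibrillin, had 499 to 649 normalized counts with EV (median 573) and 559, 442, 483, 526 and 548 with del9, so that 3 del9 samples lay inside the EV range. Its log2 fold change was -0.15 (SE 0.05, adjusted p = 0.0144), with an adjusted p of 0.0854 with filterByExpr and 0.0822 with DESeq2. With the gene length correction it was -0.12 (adjusted p = 0.0864). Without del9 replicate 2, del9 replicate 3 or EV replicate 4 the adjusted p was 0.199, 0.0845 and 0.173. *Adamts7* had 555, 454, 545, 548 and 451 normalized counts with del9, with 2 samples below the EV range. Its log2 fold change was -0.15 (SE 0.05, adjusted p = 0.0146), and the adjusted p was 0.195 with filterByExpr and between 0.0792 and 0.204 without EV replicate 3, 4 or 6 or del9 replicate 2 or 5.

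*Adamts4*, an aggrecanase, had 284 to 337 normalized counts with EV (median 327) and 297, 280, 279, 268 and 274 with del9. All but 1 del9 sample lay below the EV range. The log2 fold change was -0.17 (SE 0.06) with an adjusted p of 0.0437, close to the threshold. It was 0.0387 with filterByExpr and 0.0519 with DESeq2, and leaving out any of 8 samples (EV replicate 1, 3, 4 or 6, or del9 replicate 2, 3, 4 or 5) gave between 0.0655 and 0.139 at a log2 fold change of -0.15 to -0.17. *Adamts6*, called between *gdf6Y* and EV, had 346, 354, 338, 371 and 374 normalized counts with del9, of which 3 lay below the EV range (log2 fold change -0.13, SE 0.05, adjusted p = 0.127).

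*Timp1* was the only member that was higher in the edgeR test. The del9 samples had 2687, 2812, 2998, 2888 and 3004 normalized counts, all but the first above the EV range of 2501 to 2761. The log2 fold change was 0.12 (SE 0.03, adjusted p = 0.00172). *Timp1* has a short exonic length of 1957 bases. Over all 12578 genes the log2 fold change between del9 and EV fell with exonic length (Spearman's rho -0.24 across genes, which share the libraries). With this trend removed, the log2 fold change of *Timp1* was 0.06 and the adjusted p was 0.19. The trend was -0.31 between *gdf6Y* and EV, where the same correction took *Timp1* from 0.09 to 0.04.

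Of the remaining abundant members, *Timp2* (10094 to 11108 normalized counts with del9) had a log2 fold change of 0.04 between del9 and EV (95% interval -0.01 to 0.09), *Mmp14* (2567 to 2779) one of -0.01 (-0.07 to 0.05), and *Mmp2* (5012 to 5576) one of -0.06 (SE 0.03, adjusted p = 0.212). With the gene length correction *Mmp2* was called lower here too (-0.09, adjusted p = 0.0078). *Mmp23* had 162 to 185 normalized counts with del9 and 179 to 212 with EV, with an adjusted p of 0.195. *Mmp11* (449 to 541 against 506 to 544) had an adjusted p of 0.522 and *Adamts14* (801 to 892 against 773 to 848) one of 0.197. The median log2 fold change over the 23 expressed members was -0.12 with 17 below 0, against a median of 0.01 and 47.8% below 0 over all genes at this level. By class it was -0.15 for the ADAMTS proteases, -0.12 for the MMPs and 0.06 for the TIMPs. The exonic length of the expressed members ran from 1722 to 15095 bases, with a median of 6166, against a median of 6153 over all genes at this level. With the length trend removed the median log2 fold change of the members was -0.12. By class it was then -0.13 for the ADAMTS proteases, -0.16 for the MMPs and 0.06 for the TIMPs. The part of length in these differences was not tested.

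**Figure D2:**
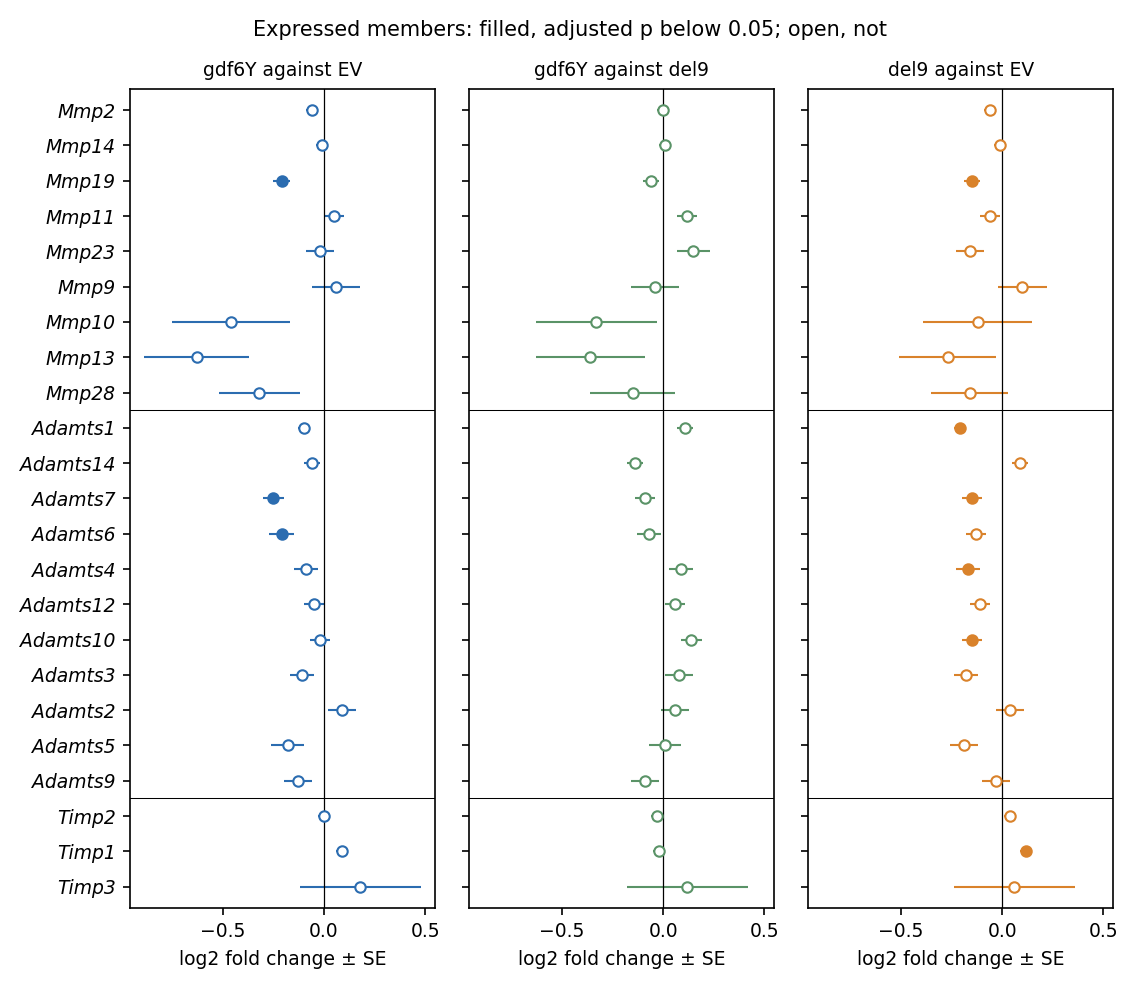
Log2 fold changes (points, with standard errors) of the 23 expressed members in the 3 comparisons; filled points passed the edgeR quasi-likelihood test at an adjusted p below 0.05. Filled points are 3 lower members between *gdf6Y* and EV, 5 lower members and *Timp1* between del9 and EV, and none between *gdf6Y* and del9.

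The comparison of *gdf6Y* with del9 tests directly whether the intact and the shortened protein differ in their effect. Among 34 members tested, none passed the edgeR test as fitted here, without covariates, or DESeq2. Over all 25878 genes tested, edgeR called 0.599% higher and 0.41% lower with *gdf6Y*, and DESeq2 0.185% and 0.128%. Among genes with a mean of at least 10 normalized counts, edgeR called 0.97% higher and 0.835% lower. At an unadjusted p below 0.05, 5 members differed, against 7.88% of all genes tested. They were *Mmp24*, which was detected with at most 5 reads in a sample, and 4 of the 23 expressed members, against 12% of genes with a mean of at least 10. The difference was therefore not shown for any of the members that passed in 1 of the comparisons with EV, and its 95% interval (log2) was -0.14 to 0.02 for *Mmp19*, -0.19 to 0.01 for *Adamts7*, -0.19 to 0.05 for *Adamts6* and -0.09 to 0.04 for *Timp1*. For *Adamts4* it was -0.04 to 0.22.

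For *Adamts1*, *Adamts10*, *Adamts14* and *Mmp11* the unadjusted interval did not include 0. *Adamts1* was higher with *gdf6Y* than with del9 by 0.11 (95% interval 0.03 to 0.18, adjusted p = 0.196), and the *gdf6Y* range included 4 samples between 1400 and 1453 normalized counts and replicate 1 at 1691, against 1319 to 1466 with del9. Without *gdf6Y* replicate 1 the log2 fold change was 0.06 (adjusted p = 0.709). *Adamts10* had 505 to 596 normalized counts with *gdf6Y* against 442 to 559 with del9 (log2 fold change 0.14, 95% interval 0.04 to 0.24, adjusted p = 0.233), and without del9 replicate 2, the lowest del9 sample, the log2 fold change was 0.09. *Mmp11* had 502 to 566 normalized counts with *gdf6Y* and 449 to 541 with del9 (0.12, 95% interval 0.02 to 0.22, adjusted p = 0.457), and without del9 replicate 4 the log2 fold change was 0.08. The samples of *Adamts14* did not overlap between these groups, with 732, 789, 783, 742 and 782 normalized counts with *gdf6Y* and 807, 873, 864, 801 and 892 with del9. How many of all genes separate in this way was not counted. The log2 fold change of *Adamts14* was -0.14 (95% interval -0.23 to -0.05, adjusted p = 0.0929), and the adjusted p was 0.0393 without del9 replicate 1 and 0.0431 without del9 replicate 4. *Adamts14* lies inside the EV range of 773 to 848 with 3 *gdf6Y* samples and with 2 del9 samples. Of the other abundant members, *Timp2* had a 95% interval of -0.09 to 0.02, *Mmp2* one of -0.06 to 0.07 and *Mmp14* one of -0.06 to 0.07 for the log2 fold change between *gdf6Y* and del9. *Mmp23* had 177 to 207 normalized counts with *gdf6Y* and 162 to 185 with del9 (0.15, 95% interval -0.01 to 0.30, adjusted p = 0.642).

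In the EV and *gdf6Y* groups the same libraries tended to be low across several members. In *Mmp19* and in *Adamts7* replicates 2 and 5 were the 2 lowest samples in all 3 groups, and in *Adamts4* in the EV and *gdf6Y* groups, a pattern noticed after the values were seen. Among the 23 expressed members this held for 7 in EV, 8 in *gdf6Y* and 3 in del9, against 13.4%, 17.5% and 12.7% of all 12578 genes. In del9 the count was thus near the share of all genes. The members in which the pattern was noticed are part of these counts. The labels give no shared day or batch for a replicate number.

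Of the matrix substrates of these proteases, several were called lower with *gdf6Y* or del9 against EV and none was called higher. Of 17 substrates outside the collagens, 10 were expressed, and 9 of the 15 tested were called lower between *gdf6Y* and EV (8 with filterByExpr, where 5.71% of all genes were). DESeq2 called 7 lower, against 2.87% of all genes, and the reported test called 3.38% of all genes lower. The median log2 fold change of the 10 expressed substrates was -0.20, against 0.00 over all genes at this level. The smallest adjusted p was that of *Hspg2*, encoding the basement membrane proteoglycan perlecan (8672 normalized counts on average with *gdf6Y* and 11131 with EV, log2 fold change -0.36, SE 0.03, adjusted p = 1.1e-27). In *Hspg2* the highest *gdf6Y* sample (11850 normalized counts) lay inside the EV range (10277 to 11962). The SD of *Hspg2* was 1850 normalized counts over the 5 *gdf6Y* samples and 837 over the 6 EV samples. The adjusted p-values in this paragraph come from the fit that drew the spread of each gene almost fully to the common trend. *Vcan*, encoding versican, which ADAMTS proteoglycanases cut, had a log2 fold change of -0.30 (SE 0.03), and *Fbn1*, encoding fibrillin 1, one of -0.30 (SE 0.03). *Thbs1*, encoding thrombospondin 1, had 26789 to 30139 normalized counts with *gdf6Y* and 30942 to 33867 with EV, without overlap (log2 fold change -0.23, SE 0.02, adjusted p = 9.0e-18). The ADAMTS substrates *Acan*, *Bcan*, *Ncan* and *Comp* had 6 reads or fewer each in all samples together.

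Between del9 and EV 7 of the 17 substrates tested were called lower (6 with filterByExpr, where 8.29% of all genes were), with a median of -0.13 over the 10 expressed. DESeq2 called 6 lower, against 3.54% of all genes. The smallest adjusted p-values were those of *Thbs1* (log2 fold change -0.25, SE 0.02), *Vcan* (-0.22, SE 0.03) and *Hspg2* (-0.20, SE 0.03). The adjusted p of *Hspg2* here was 0.0539 with filterByExpr. Between *gdf6Y* and del9 *Hspg2* and *Nid1* (log2 fold change -0.13, adjusted p = 0.0297), encoding the basement membrane protein nidogen 1, were called lower, and neither was with DESeq2 or with filterByExpr (where 0.15% of all genes were). In *Hspg2* replicate 1 with *gdf6Y* (11850 normalized counts, the others 7276 to 8478) and replicate 2 with del9 (12042, the others 8058 to 9905) stood apart. Without *gdf6Y* replicate 1 the log2 fold change of *Hspg2* between *gdf6Y* and del9 was -0.30, and without del9 replicate 2 it was -0.07 (adjusted p = 0.575). *Hspg2*, *Vcan* and *Fbn1* have large exonic lengths (15935, 16535 and 12128 bases). With the length trend removed, 8 substrates were called lower between *gdf6Y* and EV and *Hspg2* had a log2 fold change of -0.30.

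*Lrp1*, the endocytic receptor that clears MMPs, ADAMTS proteases and TIMPs from the cell surface, showed the same samples apart. Its normalized counts were 11012 to 12857 with EV, 13732, 9454, 9188, 8544 and 8307 with *gdf6Y*, and 9196, 13238, 10562, 9951 and 11181 with del9. The log2 fold change between *gdf6Y* and EV was -0.28 (SE 0.03, adjusted p = 3.1e-17), but the adjusted p was 0.0631 with filterByExpr and 0.167 with DESeq2. Without *gdf6Y* replicate 1 the log2 fold change was -0.42. Between del9 and EV it was -0.14, with values of -0.22 without del9 replicate 2 and -0.09 without del9 replicate 1. Between *gdf6Y* and del9 *Lrp1* was called lower at -0.13. That value was -0.28 without *gdf6Y* replicate 1 and -0.05 (adjusted p = 0.709) without del9 replicate 2. Neither of the comparisons with del9 gave a call of *Lrp1* with filterByExpr or with DESeq2. The membrane anchor *Reck*, an inhibitor of MMPs, had 158 normalized counts on average with EV, 160 with *gdf6Y* and 151 with del9.

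Among 12 genes of the plasminogen system and the proprotein convertases, which open proenzymes, 6 were expressed, while plasminogen itself (*Plg*) had no count. *Plat*, encoding tissue-type plasminogen activator, was called lower between *gdf6Y* and EV (log2 fold change -0.20, SE 0.03, adjusted p = 6.5e-07, but 0.068 with filterByExpr). *Plau*, encoding urokinase, and its receptor gene *Plaur* rose between del9 and EV, by 0.15 (SE 0.03, adjusted p = 0.00047) and 0.17 (SE 0.03, adjusted p = 2.7e-05). *Plat* was called lower in the same comparison at -0.09 (adjusted p = 0.0372), and was not with filterByExpr (0.29). *Furin* had 2123 normalized counts on average with EV, 2158 with *gdf6Y* and 2078 with del9.

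The remaining partner genes are given by list. Among all genes with a mean of at least 10 normalized counts, edgeR called 10.5% in either direction between *gdf6Y* and EV. It called 1.8% between *gdf6Y* and del9 and 18.2% between del9 and EV. Of 8 ADAM sheddases, relatives that release cell surface proteins, 7 were expressed. *Adam12* was called lower between *gdf6Y* and EV (-0.15), *Adam8* lower between *gdf6Y* and del9 (-0.19), and *Adam15* (0.10) and *Adam8* (0.13) higher between del9 and EV. *Adam12* and the *gdf6Y* against del9 call of *Adam8* were not called with filterByExpr (adjusted p = 0.0736 and 0.107). Of 7 ADAMTS-like genes, whose products resemble ADAMTS proteases without a catalytic domain, 3 were expressed, and *Adamtsl4*, which binds fibrillin, fell between del9 and EV (log2 fold change -0.26, SE 0.07, adjusted p = 0.00675) without overlap of the groups. Of 7 tolloids, procollagen C-proteinase enhancers and meprins, *Bmp1*, *Pcolce* and *Pcolce2* were expressed, and *Pcolce2* rose between del9 and EV (0.25, SE 0.06, adjusted p = 0.000555). Among 9 anchors, clearance receptors and inducers, *Sdc4* was called higher between *gdf6Y* and EV (0.10), and *Cd44* (0.10) and *Bsg* (0.09), which encodes the MMP inducer basigin, were called higher between del9 and EV. Of the 7 expressed genes of this list, 3 were called higher and 1 lower between del9 and EV. *Cd44* and *Bsg* were not called with filterByExpr (adjusted p = 0.0737 and 0.151). Several of these calls rested on single samples. *Adam15* had an adjusted p of 0.0545 without EV replicate 5 and 0.0744 without del9 replicate 3, *Cd44* of 0.0681 without del9 replicate 5, and *Adam8* between *gdf6Y* and del9 of 0.0504 without del9 replicate 3. The calls of *Nid1*, *Adam12*, *Sdc4* and *Bsg*, and those of *Adam8* and *Plat* between del9 and EV, were lost in 4 to 7 of the fits that left out a replicate.

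**Figure D3:**
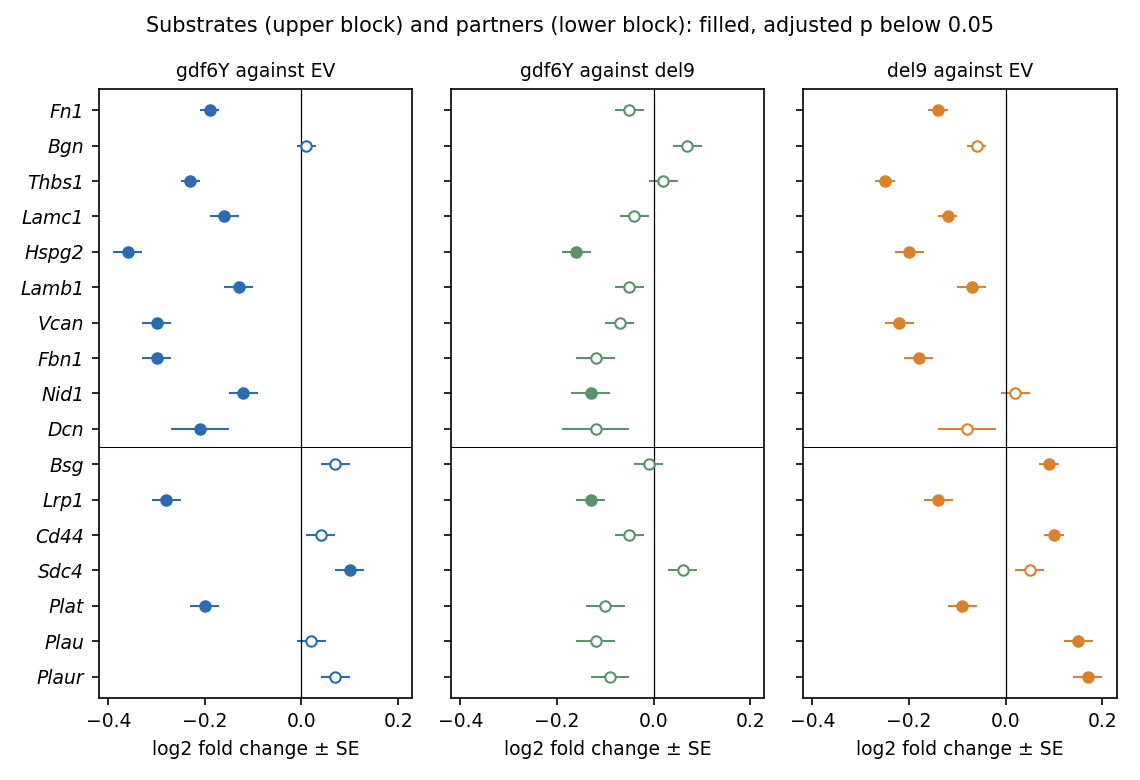
Log2 fold changes (points, with standard errors) of the 10 expressed matrix substrates (upper block) and of 7 genes of the plasminogen system, clearance and anchoring that were called at least once (lower block), in the 3 comparisons; filled points passed the edgeR test at an adjusted p below 0.05. Of the substrates, 9 are lower between *gdf6Y* and EV and 7 between del9 and EV.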

How the data were processed

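RNA of 16 transfected TM4 samples was sequenced as stranded poly(A) libraries made from 300 ng of total RNA with unique molecular identifiers. Per the study's methods and the labels, the authors mapped the reads to GRCm39 (STAR 2.7.10a), collapsed PCR copies by their identifiers (UMI-tools), and assigned uniquely mapped reads to Ensembl genes by strand (featureCounts 2.0.3). The deposited values are raw counts per gene. A sixth *gdf6Y* and a sixth del9 sample were not analysed here. Groups and replicate numbers came from the labels. Symbols, positions and exonic lengths came from GENCODE vM39 on GRCm39, which is not the counting annotation and matched 56017 of 56748 identifiers.

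The deposited counts were compared with the edgeR 4.0.16 quasi-likelihood test in R 4.3.3, for pairs of groups without covariates. Genes without a read in a comparison were left out, and libraries were scaled by TMM. P-values were adjusted by Benjamini-Hochberg over all genes tested and called below 0.05. The SE is the size of the log2 fold change divided by the square root of the F statistic, and 95% intervals span 1.96 SEs on either side, unadjusted. Steps were tested on simulated data. Alternatives were DESeq2 1.42.0 or its size factors, total counts, filterByExpr, a minimum of 10 counts in each sample, a joint model of the 3 groups, the edgeR 4 dispersion estimate, a gene length correction, the replicate block with and without it, and leaving out each replicate. Deposited counts of replicates differed by more than sampling noise in each of 35 pairs within groups (chi-square per degree of freedom 1.41 to 11.5).

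Every member was named. Values by sample or by range, with tests, are given for members called in any comparison and for the 10 with the highest TPM, and partner lists were counted whole, with up to 4 called genes named for each list and comparison. Some genes of the partner lists are not reported here. The members, lists and motifs were chosen with earlier results of these data known. No test over a list was run.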

Additional observations from a re-analysis of the deposited data

Results flagged for a closer look

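Among 69 groups of values (the 23 expressed members in each of the 3 groups of samples), 3 had a sample set apart from the others by Dixon's criterion, and chance gives about 1 in 20 groups, or 3.45 here. In *Adamts1*, *gdf6Y* replicate 1 had 1691 normalized counts while the others had 1400 to 1453, and its gap was 0.82 of the range. In *Adamts9* the same sample had 238 against 209 to 217 (0.724 of the range). In *Mmp2*, del9 replicate 1 had 5576 against 5012 to 5149 (0.758 of the range). Without *gdf6Y* replicate 1, *Adamts1* was called lower between *gdf6Y* and EV.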

How the results depend on the processing

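No member called changed direction under any alternative. Of 189 alternative values of single called members, 157 kept their call and 32 lost it. Between *gdf6Y* and EV, 1 member (*Timp1*) was called higher with DESeq2, filterByExpr and at least 10 counts in every sample, against 0 in the reported test, and 5 were called lower with the gene length correction. With this correction 657 of all 26316 genes tested were called lower, against 890 in the reported test. Between del9 and EV, 0 members were called higher with the length correction, and 2 were called lower with DESeq2 and 3 with filterByExpr or at least 10 counts in every sample, against 5. Leaving out a replicate gave 0 to 1 higher and 2 to 4 lower members between *gdf6Y* and EV, 1 higher and 2 to 7 lower between del9 and EV, and 0 higher and 0 to 1 lower (*Adamts14*) between *gdf6Y* and del9. The number of expressed members was 19 to 23 under the other thresholds.

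Replicate numbers are shared by the groups, but the correlation of same-numbered deviations ran from -0.0364 to 0.188 over 12578 genes and did not exceed 0.1 in every pair of any comparison, so that the samples were treated as sharing only a number. It exceeded 0.1 in 4 of 5 pairs of *gdf6Y* and EV, 3 of 5 of *gdf6Y* and del9 and 2 of 5 of del9 and EV. With the replicate block, 1 member was called higher between *gdf6Y* and EV, and 1 higher (*Adamts1*, adjusted p = 0.035) and 1 lower (*Adamts14*, 0.0152) between *gdf6Y* and del9. With the block and the length correction together it was 5 lower between *gdf6Y* and EV, 2 higher (*Adamts1* and *Adamts10*) and 1 lower between *gdf6Y* and del9, and 0 higher between del9 and EV. Over all genes, both together gave 953 lower of 26062 between *gdf6Y* and EV. Between *gdf6Y* and del9 they gave 329 higher and 310 lower of 25878.

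Over all genes, 155 were called higher and 106 lower between *gdf6Y* and del9, against 26 and 19 with filterByExpr, 25 and 19 with at least 10 counts in every sample, 48 and 33 with DESeq2, and 289 and 372 with the block. Between *gdf6Y* and EV 448 were called higher, and 912 with the block. The cause of these changes was not tested. The 3 expressed members with a mean below 20 normalized counts (*Mmp10*, *Mmp13* and *Timp3*) had SEs of 0.24 to 0.30 and the members detected with few reads SEs of 0.55 to 1.34, which limits what could be detected.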
